A study of Mus musculus with 6 samples.

Results

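The 8 mouse genes described here are the 2′-5′-oligoadenylate synthetases Oas1a, Oas1b, Oas1c, Oas1g, Oas2 and Oas3 and the OAS-like genes Oasl1 and Oasl2. They were found by mapping the Ensembl identifiers of the deposited table to the listed symbols, and all 8 of them had a row among 23154. The 3 libraries of the NUR77 line came from RAW264.7 cells (a line of mouse cells resembling macrophages) carrying pINDUCER20b-HA-NUR77, which drives HA-tagged NUR77, the nuclear receptor made from Nr4a1, when doxycycline is added. The 3 libraries of the GFP line came from RAW264.7 cells with pINDUCER20b-GFP. Each library was made from its own dish, and all 6 dishes received doxycycline at 1 µg/mL for 18 hours, beginning 24 hours after seeding. Each group is a single stable line, with no statement whether it is 1 clone, so line and transgene cannot be told apart, and p-values measure the spread between dishes. The labels name no infection, interferon or other inflammatory stimulus.

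OAS enzymes are induced by interferon and are activated by double-stranded RNA, on which they join ATP into short chains with 2′-5′ links, called 2-5A. The 2-5A chains act as a second messenger of antiviral defence. Type I interferon acts through its receptor and the kinases Jak1 and Tyk2 on factors that include Stat2 and Irf9, which bind the interferon-stimulated response element (ISRE) in promoters of such genes. Oas2 and Oas3 differ from the Oas1 genes in carrying repeated OAS units. The proteins of Oasl1 and Oasl2 carry ubiquitin-like domains at their ends. In mice, Oasl1 lacks synthetase activity and is known to hold back translation of Irf7 mRNA, and Oasl2 is an active synthetase.

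All 8 genes lie on chromosome 5 (mm10, GENCODE M21 annotation). Oasl2 (ENSMUSG00000029561, 114896936 to 114912234) and Oasl1 (ENSMUSG00000041827, 114923240 to 114937915) are neighbours on the plus strand. The other 6 form a cluster that starts with Oas2 (ENSMUSG00000032690, 120730333 to 120749853) and Oas3 (ENSMUSG00000032661, 120753098 to 120777661), both on the minus strand. Next are Oas1c (ENSMUSG00000001166, 120800194 to 120812514, minus) and Oas1b (ENSMUSG00000029605, 120812635 to 120824163, plus), followed by Oas1g (ENSMUSG00000066861, 120876142 to 120887613, minus) and Oas1a (ENSMUSG00000052776, 120896256 to 120907521, minus). Oas1b, known as the flavivirus resistance gene of mice, is annotated as a polymorphic pseudogene, since many laboratory strains carry a truncating variant.

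Promoter windows are shown because 4 of the 6 members with a window in the RefSeq table (GRCm38.p6) hold the ISRE core, which is GAAA followed after any 2 bases by GAAA again, searched on both strands. Each window runs from 250 bases before to 50 bases after a transcript start, 5′ to 3′ on the gene's strand, with ISRE core matches in capitals. Oasl1, with no match to these letters, is given for comparison. Oas1a, Oas1c, Oas1g, Oas3 and Oasl1 read as follows.
Oas1a, chr5:120907476-120907775, minus strand: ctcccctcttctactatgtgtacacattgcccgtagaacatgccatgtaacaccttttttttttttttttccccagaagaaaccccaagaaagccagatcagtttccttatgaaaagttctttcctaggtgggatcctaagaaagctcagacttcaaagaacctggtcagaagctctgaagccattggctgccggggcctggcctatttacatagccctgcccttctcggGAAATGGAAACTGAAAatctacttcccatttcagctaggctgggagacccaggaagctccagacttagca
Oas1g, chr5:120887564-120887863, minus strand: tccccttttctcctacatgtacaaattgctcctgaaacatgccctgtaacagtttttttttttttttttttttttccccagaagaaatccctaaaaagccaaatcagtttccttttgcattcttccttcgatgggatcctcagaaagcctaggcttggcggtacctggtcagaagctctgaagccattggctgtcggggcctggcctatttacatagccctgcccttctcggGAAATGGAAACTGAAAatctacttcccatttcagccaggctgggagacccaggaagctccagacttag
Oas1c, chr5:120812465-120812764, minus strand: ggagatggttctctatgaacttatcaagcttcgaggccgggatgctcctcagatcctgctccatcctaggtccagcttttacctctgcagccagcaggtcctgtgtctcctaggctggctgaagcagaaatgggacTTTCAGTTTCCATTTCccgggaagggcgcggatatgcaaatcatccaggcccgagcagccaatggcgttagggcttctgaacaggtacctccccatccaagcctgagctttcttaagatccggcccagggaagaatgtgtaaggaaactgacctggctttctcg
Oas3, chr5:120777610-120777909, minus strand: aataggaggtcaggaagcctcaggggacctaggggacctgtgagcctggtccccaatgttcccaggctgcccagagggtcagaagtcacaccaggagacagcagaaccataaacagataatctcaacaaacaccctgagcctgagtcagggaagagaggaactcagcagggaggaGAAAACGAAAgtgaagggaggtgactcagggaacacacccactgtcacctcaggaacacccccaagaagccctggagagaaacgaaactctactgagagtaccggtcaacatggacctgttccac
Oasl1, chr5:114922990-114923289, plus strand: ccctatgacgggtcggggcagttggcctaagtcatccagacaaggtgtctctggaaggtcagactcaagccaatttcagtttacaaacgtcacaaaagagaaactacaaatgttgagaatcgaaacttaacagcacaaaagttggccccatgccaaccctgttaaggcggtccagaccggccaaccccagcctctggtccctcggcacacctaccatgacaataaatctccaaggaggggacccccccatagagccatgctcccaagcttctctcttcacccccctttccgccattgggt

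Oas1a and Oas1g each held a pair of overlapping matches in the same run of letters, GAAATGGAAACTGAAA, between positions -20 and -5 in Oas1a and between -18 and -3 in Oas1g, counted from the start site. In Oas1c a pair of matches lay on the opposite strand between -114 and -99. That is the plus strand, on which the divergent gene Oas1b lies, and the pair ends 7 bases and begins 22 bases before the annotated start of Oas1b, so it is not assigned to either gene. In Oas3 a single match, GAAAACGAAA, lay between -75 and -66. The ISRE core was found in 3.44% of the 32851 windows of this length in the table. The windows of Oasl1 and Oasl2 held no match, and Oas2 and Oas1b have no entry in the table used. The gamma-activated site, TTCNNNGAA, was matched in 1 of the 6 windows, that of Oas1a, against 8.3% of all windows. The NUR77 response element AAAGGTCA was matched in 0 of the 6, against 1.51% of all windows. A match of letters is not a measured binding site, and the absence of one says nothing of the factor.

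The unit of all levels is the normalized read, a gene's reads scaled to a library total of 10000000, and the depth was between 11199468 and 15929487 reads per library. Nr4a1 stood at 288.4, 314.2 and 296.8 normalized reads in the NUR77 libraries, against 170.0, 148.2 and 161.4 in the GFP libraries (log2 fold change 0.90, SE 0.08, limma adjusted p = 5.5e-08). The values do not separate transgene from endogenous transcript. All 8 macrophage markers examined, among them Cd68, Csf1r and Adgre1, were detected, at a summed level of 26828.0 to 28154.9 in the NUR77 line and 72036.2 to 73276.4 in the GFP line. Of these, 5 fell, 1 (Itgam) rose and 2 were not called, beside 28.3% called lower and 38.4% higher among all genes tested as described below. The largest falls were those of Mpeg1 (log2 fold change -4.03) and Lyz2 (-3.39). The part of this shift of macrophage markers in the results on OAS genes was not tested. Markers of T cells, B cells and epithelial cells were at or near 0, and Cd3e, Ms4a1 and Krt8 had no read. Summed separately for each of these cell types, they reached at most 1.39 in any NUR77 library and 5.65 in any GFP library. Skeletal muscle markers summed to 267.9 in NUR77 replicate 1 against 103.1 and 111.4 in the other NUR77 libraries and 374.8 to 426.5 in the GFP libraries, where Tnni2 made up most of the sum. Fibroblast markers summed to 92.9 in NUR77 replicate 1, against 22.3 and 32.0 in the other NUR77 libraries and 17.6 to 22.3 in the GFP libraries.

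All 8 OAS genes rose in the NUR77 line. Differences were tested with limma on log2(normalized reads + 1) over 11201 genes with a mean of 10 or more, at an adjusted p of 0.05. The call "higher" was given to 38.4% of all tested genes (4305), "lower" to 28.3% and either to 66.7%, so a call alone is common in this comparison. A call with a log2 fold change of 1 or more was given to 7.68% of tested genes, and to 6 of the 8 OAS genes. In all 8, the 3 NUR77 values lay above the 3 GFP values, as they did in 40.3% of tested genes. The median log2 fold change of the 8 was 2.15, beside 0.06 over all tested genes. In bulk RNA, more cells expressing a gene and more RNA per cell cannot be told apart.

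**Figure D1:**
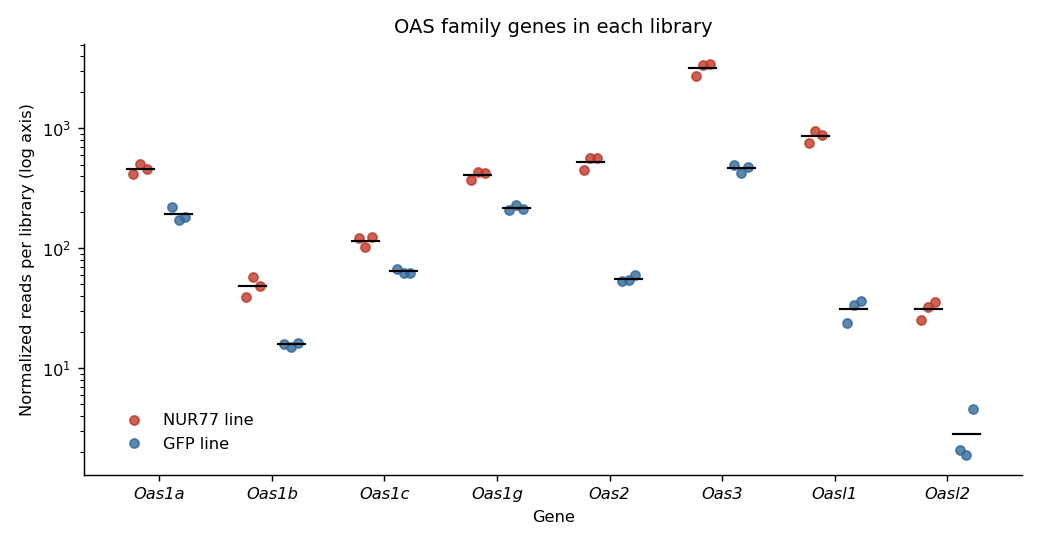
Normalized reads (log axis) of the 8 OAS genes in each library; dots are the 3 libraries of the NUR77 line (red, left of each pair) and of the GFP line (blue, right), and black lines are means. The red dots lie above the blue ones for every OAS gene.

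Among the synthetases with repeated units, Oas3, which makes long 2-5A chains, was the most abundant. It had 2725.1, 3368.3 and 3476.7 normalized reads in the NUR77 libraries, against 494.8, 425.6 and 476.5 in the GFP libraries. The means were 3190.0 ± 406.3 and 465.6 ± 35.8 (SD, n = 3 each), a log2 fold change of 2.77 (SE 0.09, limma adjusted p = 2.3e-11). The lowest NUR77 library was thus far above the highest GFP library. Oas2, the synthetase with 2 OAS units, had 449.1, 567.1 and 571.2 normalized reads in the NUR77 libraries, against 53.0, 54.6 and 60.1 in the GFP libraries. It rose by a log2 fold change of 3.21 (SE 0.10, limma adjusted p = 6.2e-14), or 9.27-fold.

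The 4 Oas1 genes, each encoding a protein with a single OAS unit, rose by less. Oas1a had 419.7, 504.4 and 455.9 normalized reads in the NUR77 libraries, against 223.0, 172.0 and 181.0 in the GFP libraries (log2 fold change 1.26, SE 0.10, limma adjusted p = 6.6e-09). Oas1g had 368.8, 429.8 and 428.0 in the NUR77 libraries, against 207.7, 229.1 and 214.4 in the GFP libraries (log2 fold change 0.91, SE 0.08, limma adjusted p = 3.0e-08). These are the 2 most alike of the set: 1057 stretches of 50 bases occur in the transcripts of both, and stretches found in another gene make up 57.6% of Oas1a and 45.7% of Oas1g. Reads from such stretches may be split or dropped in counting, so the level of each is uncertain. Oas1c had 122.3, 101.7 and 123.3 normalized reads in the NUR77 libraries, against 67.6, 62.8 and 62.1 in the GFP libraries (log2 fold change 0.84, SE 0.12, limma adjusted p = 1.2e-05). Of its stretches, 9.82% recur in another gene, mostly in Oas1e. The annotation also places an antisense gene over Oas1c (Gm43069) and over Oasl1 (Gm13822), and Gm43068 overlaps Oas2, so that without a stated strand setting their reads cannot be told apart. Oas1b was the least abundant of these 4 Oas1 genes per exon length. It had 39.3, 57.1 and 48.5 normalized reads in the NUR77 libraries, against 16.0, 15.1 and 16.3 in the GFP libraries (log2 fold change 1.54, SE 0.20, limma adjusted p = 3.1e-06). For Oas1b the share of recurring stretches was 2.78%.

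The sum over the 4 Oas1 genes does not depend on how reads are split among them, though it misses reads that were dropped. It came to 950.0, 1093.0 and 1055.7 normalized reads in the NUR77 libraries, against 514.3, 479.0 and 473.9 in the GFP libraries, a ratio of means of 2.11. The groups did not overlap, and the exact two-sided permutation test gave p = 0.1, the smallest that 3 against 3 libraries allow.

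The OAS-like genes held both the largest rise and the lowest level. Oasl1 had 756.3, 951.6 and 883.1 normalized reads in the NUR77 libraries, against 23.7, 33.9 and 36.6 in the GFP libraries. With means of 863.7 ± 99.1 and 31.4 ± 6.81 (SD, n = 3 each) its log2 fold change was 4.75 (SE 0.14, limma adjusted p = 6.3e-12), the 65th largest rise among the tested genes. Oasl2 had 25.0, 32.7 and 35.8 normalized reads in the NUR77 libraries, against 2.09, 1.88 and 4.58 in the GFP libraries (log2 fold change 3.11, SE 0.32, limma adjusted p = 2.4e-07). These are 120 reads in the NUR77 line and 13 in the GFP line, a ratio of 11.0 with an exact 95% interval of 6.21 to 21.3 for counting error only. With so few reads the fitted fold depends on the pseudocount, and at a pseudocount of 5 the log2 fold change was 2.21.

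**Figure D2:**
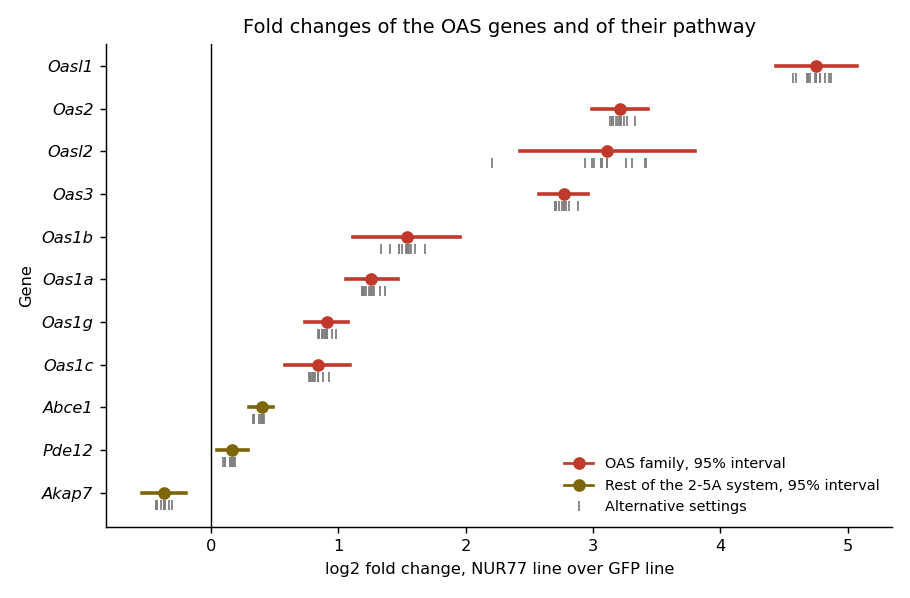
Log2 fold changes, NUR77 line over GFP line, of the 8 OAS genes (red) and of 3 other genes of the 2-5A system (brown); bars are 95% intervals from limma and grey ticks are the values under the alternative settings. The OAS genes run from 0.84 for Oas1c to 4.75 for Oasl1, and the others from -0.37 for Akap7 to 0.40 for Abce1.

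The fold changes fell into an order led by Oasl1, then Oas2, Oasl2, Oas3, Oas1b, Oas1a, Oas1g and Oas1c. Each gene was set against the next by the ratio of the 2 within each library, 7 pairs in all. The ratios of the NUR77 and GFP libraries did not overlap for Oasl1 and Oas2 (difference of log2 fold changes 1.54), for Oas3 and Oas1b (1.23), and, by a narrow margin, for Oas1b and Oas1a (0.28). They overlapped for Oas2 and Oasl2 (0.10), Oasl2 and Oas3 (0.35), Oas1a and Oas1g (0.35), and Oas1g and Oas1c (0.07). The smallest exact permutation p was 0.1, or 0.23 adjusted over the 7 pairs, and this design allows no smaller unadjusted value.

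The make-up of the family differed between the lines. Per kb of exon, Oas3 was highest in the NUR77 line, at 451.3 ± 57.5 normalized reads per kb, followed by Oasl1 (331.2 ± 38.0), Oas1a (244.0 ± 22.5), Oas1g (174.7 ± 14.8), Oas2 (118.9 ± 15.6), Oas1c (48.1 ± 5.07), Oas1b (24.3 ± 4.48) and Oasl2 (4.89 ± 0.873), each without overlap with the next (SD, n = 3 each). In the GFP line Oas1a (101.9 ± 14.4) and Oas1g (92.8 ± 4.69) came first and overlapped each other, before Oas3 (65.9 ± 5.07) and Oas1c (26.7 ± 1.25). Oas2 (12.6 ± 0.844) and Oasl1 (12.0 ± 2.61) overlapped, and Oas1b (7.94 ± 0.333) and Oasl2 (0.447 ± 0.235) were lowest (SD, n = 3 each). The 4 Oas1 genes made up 35.2 ± 1.26% of the family's reads per kb in the NUR77 line and 71.6 ± 1.52% in the GFP line. Oasl1 made up 23.7 ± 0.646% in the NUR77 line and 3.78 ± 0.930% in the GFP line, and Oas3 32.2 ± 1.18% and 20.6 ± 0.921% (SD, n = 3 each). Dropped shared reads would lower Oas1a and Oas1g in this order.

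**Figure D3:**
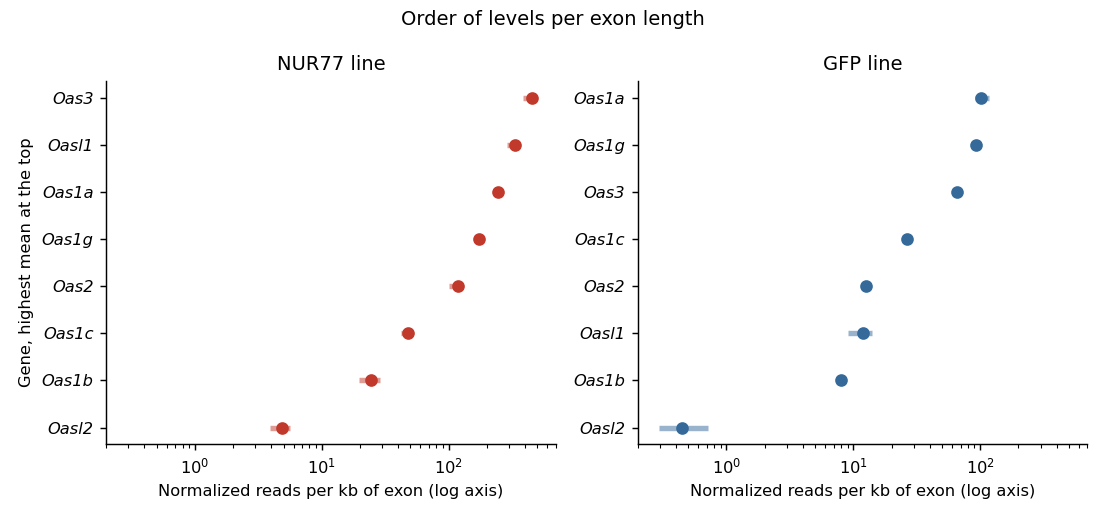
Normalized reads per kb of merged exon (log axis) of the 8 OAS genes, ordered by mean, in the NUR77 line (left) and the GFP line (right); dots are means and bars run from the lowest to the highest of 3 libraries. Oas3 and Oasl1 lead in the NUR77 line, and Oas1a and Oas1g in the GFP line.

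Of other genes tied to 2-5A, Abce1, Pde12 and Akap7 are reported, each with a log2 fold change nearer to 0 than that of any OAS gene. Of the enzymes that degrade 2-5A, Akap7 fell (log2 fold change -0.37, limma adjusted p = 9.4e-04). Pde12 was called higher by a small amount (0.17, limma adjusted p = 0.017), a call that was lost in 5 of 16 alternatives, among them TMM scaling (adjusted p = 0.13). Abce1, needed for ribosome recycling, rose to 5049.1 ± 129.1 normalized reads in the NUR77 line against 3831.9 ± 45.4 in the GFP line (SD, n = 3 each; log2 fold change 0.40, limma adjusted p = 8.5e-07). Of these 3 genes 2 rose and 1 fell, beside 38.4% called higher and 28.3% lower among all tested genes. Their median was 0.17, and 1 rose without NUR77 replicate 2 or without GFP replicate 2, which lost Pde12. The Oas1 paralog Oas1d was not tested, with 20 reads in the NUR77 line and 1 in the GFP line, a ratio of 23.9 (exact 95% interval 3.82 to 991.1). Oas1f had 1 read in each line, and Oas1e and Oas1h were not analysed here.

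In the list of double-stranded RNA sensing, which holds sensors of this ligand of the OAS enzymes along with adaptors and cofactors such as Mavs and Prkra, 8 of 10 genes rose and 0 fell, beside 38.4% called higher among all tested genes. The median log2 fold change was 1.02. The RIG-I gene Ddx58 stood at 1597.4, 1775.1 and 1743.9 normalized reads in the NUR77 libraries, against 259.2, 254.9 and 242.5 in the GFP libraries (log2 fold change 2.75). Ifih1, which encodes MDA5, rose by 2.11, Dhx58 by 2.44 and the nucleic acid sensor Zbp1 by 3.99. The kinase gene Eif2ak2, whose product PKR halts translation on double-stranded RNA, rose by 1.24 and the RNA-editing enzyme gene Adar by 0.81, and all 6 had a limma adjusted p of 4.4e-09 or less. The endosomal receptor Tlr3 (-0.26, adjusted p = 0.15) and Tarbp2 (-0.02, adjusted p = 0.82) were not called. Zbp1 had only 6, 6 and 2 reads in the GFP libraries. Its fitted fold therefore depends on the pseudocount and was lower at a pseudocount of 5, where it was still called higher.

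In the interferon signalling list 9 of the 13 tested genes reported here rose and 2 fell, with a median of 0.45, beside 38.4% called higher and 28.3% lower among all tested genes. Among factors that bind the ISRE, Irf9 rose to 617.0, 636.7 and 625.3 normalized reads in the NUR77 libraries, against 185.4, 176.4 and 177.8 in the GFP libraries (log2 fold change 1.79, limma adjusted p = 3.6e-13), and Stat2 rose by 0.76 on the log2 scale (limma adjusted p = 4.2e-08). Irf7, the factor whose translation Oasl1 is known to hold back, had 1418.8, 1931.8 and 1886.3 normalized reads in the NUR77 libraries, against 35.5, 34.5 and 26.8 in the GFP libraries (log2 fold change 5.71, limma adjusted p = 5.5e-13). Ifnb1, the interferon beta gene, had 1 read in all NUR77 libraries together and 0 in the GFP libraries, where 0 reads allow up to 0.658 normalized reads. The receptor gene Ifnar1 fell by 0.20 (limma adjusted p = 0.0032) and Ifnar2 was not called (0.04, adjusted p = 0.60). The fall of Irf3 (-0.16, limma adjusted p = 0.042) was lost in 6 of 16 alternatives, leaving 1 gene called lower without NUR77 replicate 1, NUR77 replicate 3 or any one of the GFP libraries. The rise of Ifngr1 (0.21, limma adjusted p = 0.030) was lost in 8 of 16.

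Other interferon-stimulated effectors rose in 10 of 11 tested cases and fell in 0, with a median of 3.12, again beside 38.4% higher among all tested genes. The ubiquitin-like modifier Isg15 rose by 4.53, its protease Usp18 by 3.91 and Mx2 by 4.97, each with a limma adjusted p of 9.4e-06 or less, beside Zc3hav1 at -0.01 (adjusted p = 0.86). Mx2, annotated like Oas1b as a polymorphic pseudogene, had only 6, 0 and 4 reads in the GFP libraries. Its fitted fold also depends on the pseudocount and was lower at a pseudocount of 5, where it was still called higher. The lists were described by counts and medians, and no test set them against other genes.

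**Figure D4:**
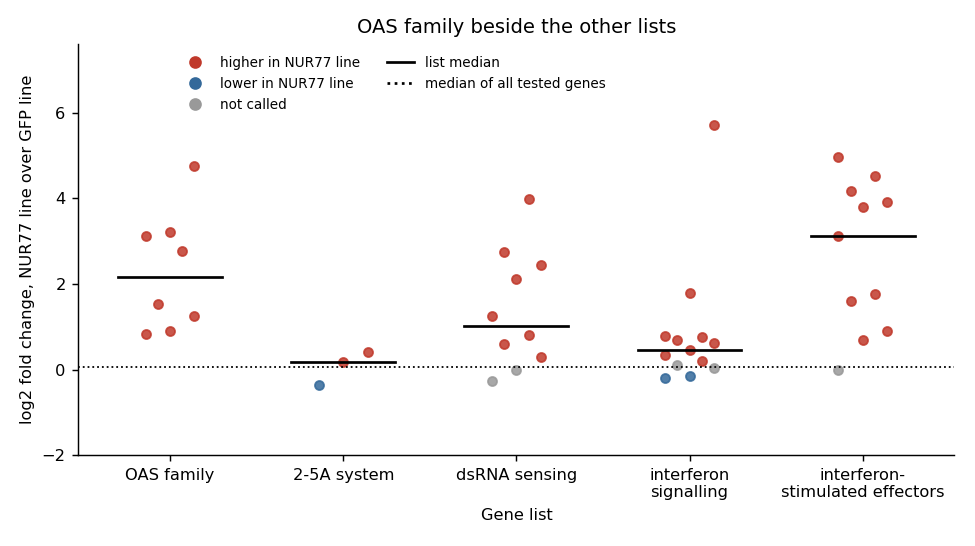
Log2 fold changes, NUR77 line over GFP line, of the tested genes in 5 lists; dots are genes, coloured by call (red higher, blue lower, grey not called), with list medians as lines and the median of all tested genes, 0.06, dotted. The OAS family has a median of 2.15 and no gene called lower, and the 3 genes shown for the 2-5A system have 2 above 0 and 1 below. Among all tested genes, 38.4% were called higher and 28.3% lower.

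Genes around the OAS genes on chromosome 5 were called in both directions, beside 38.4% higher and 28.3% lower among all tested genes. Within 500 kb of the centre of the Oasl1 and Oasl2 pair, 22 other genes were tested, of which 4 rose and 8 fell, with a median log2 fold change of -0.10 and a highest value of 0.41 (Coq5). Around the cluster of 6, the 10 other tested genes held 4 that rose and 5 that fell, with a median of -0.10 and a highest value of 0.66 (Ptpn11). Every OAS gene had a higher log2 fold change than each other tested gene in its window. The 3 nearest genes on each side include Rasal1 (-0.49), Ptpn11, Sppl3 (-0.14, limma adjusted p = 0.041), Ankrd13a (-0.03, adjusted p = 0.60), 1500011B03Rik (0.18, adjusted p = 0.30) and 2210016L21Rik (0.00, adjusted p = 1), and the rest were not tested. The untested genes include the paralog Oas1d, 7.01 kb beyond the higher-coordinate end of the cluster. It had 20 reads in the NUR77 line and 1 in the GFP line, a ratio of 23.9 (exact interval 3.82 to 991.1). Among the tested OAS genes of the cluster, Oas2 and Oas3, at its lower-coordinate end, had higher fold changes than the 4 Oas1 genes. With Oas1d untested, this order is not read as a trend along the chromosome.

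**Figure D5:**
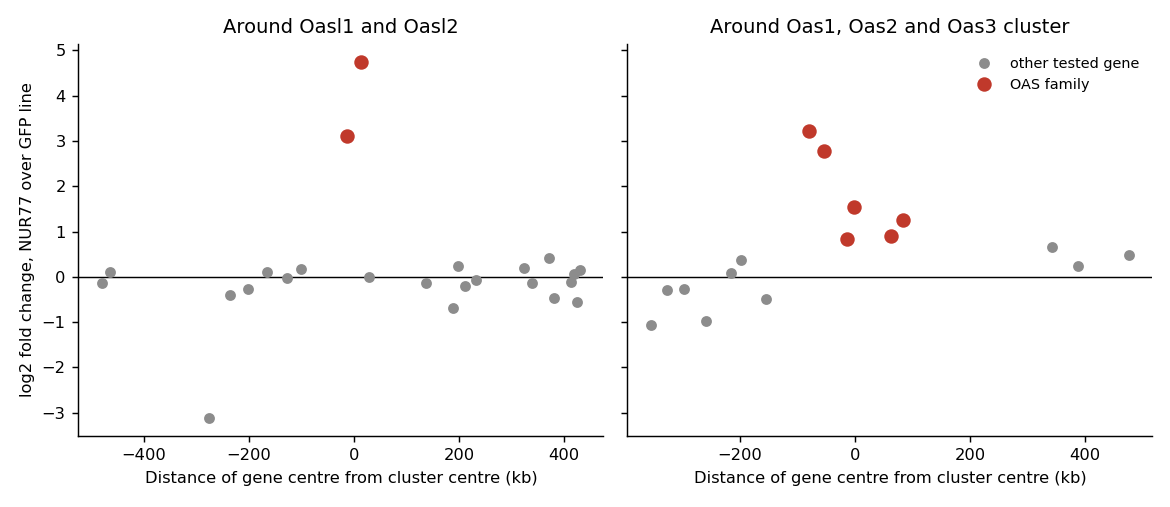
Log2 fold change, NUR77 line over GFP line, of tested genes against the distance of their centre from the centre of the OAS genes in kb, for the Oasl1 and Oasl2 pair (left) and the cluster of 6 (right); red dots are OAS genes and grey dots other genes. The highest grey dots stand at 0.41 on the left and 0.66 on the right, below the red dots of the same panel.

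The genes most like the family were sought by the correlation of their log2 values over the 6 libraries with the mean log2 value of the 8. The 5 closest were Bahd1 (r = 0.99965), Ifi27l2a (0.99962), Taf4b (0.99946), Hsdl2 (0.99941) and Ccdc92 (0.99935). In all, 581 of 11193 other tested genes had r above 0.99, and the 6 points fall into the 2 lines, so the correlation is a description only. Of the 5, Ifi27l2a, an interferon-induced gene, rose by 2.82 on the log2 scale and Bahd1 by 0.94.

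NUR77 replicate 1 had the highest summed skeletal muscle and fibroblast markers among the NUR77 libraries. It was the lowest of the NUR77 libraries in 7 of the 8 OAS genes. The part of these marker transcripts in the result was not tested. Without this library all 8 genes were called higher, with log2 fold changes of 4.85 for Oasl1 and 2.88 for Oas3.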

How the data were processed

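Strand-specific RNA-seq of polyadenylated RNA, per the labels' protocols, was made from 3 dishes of the NUR77 line and 3 of the GFP line. The authors deposited log2(normalized reads + 1) per Ensembl gene, and the undone values sum to 10000000 in each library. Per the submitters' processing notes the tools were TopHat2 2.1, HTSeq and DESeq2 with build mm10; the role of each tool, whether counting used strand and which annotation was counted are not stated there. Overlapping genes may therefore share reads. The steps of the low values gave whole reads for 100% of values within a tolerance of 0.1, at 11199468 to 15929487 reads per library. Intervals on reads cover counting error only.

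GENCODE M21 named 22872 of 23154 identifiers. A mean of at least 10 normalized reads was required, and genes were tested with limma 3.58.1 in R 4.3.3 (trend and robust options) with Benjamini-Hochberg adjustment over 11201 genes. Fold changes are on the log2(value + 1) scale, which understates changes of low genes. The 8 members, the lists and the rules for naming genes were chosen with earlier results of these data known. Some genes of these lists are not reported here. A planned comparison of protein sequences was not run and was replaced by the count of shared 50-base stretches in GENCODE transcripts. The 16 alternatives changed the scaling, pseudocount, filter, model, replicate block or libraries used.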

Additional observations from a re-analysis of the deposited data

How the results depend on the processing

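All 8 OAS genes were called higher by limma under 15 of 16 alternatives; a filter at a mean of 50 left Oas1b and Oasl2 untested and the other 6 called. Log2 fold changes ranged from 4.57 to 4.87 for Oasl1, 3.13 to 3.33 for Oas2, 2.70 to 2.88 for Oas3 and 2.21 to 3.42 for Oasl2. Alternatives were run for 46 genes, Nr4a1 and the tested genes of the OAS family and its 4 pathway lists, and not for marker genes, neighbours or the genes most like the family. No called gene among the 46 changed direction, and 709 of 729 recomputed gene values stayed on the same side of the threshold. Genes not called could change sign near 0, such as Ifnar2, at 0.04 as reported and -0.02 with TMM scaling. Of the 3 genes reported for the 2-5A system 1 rose, not 2, under TMM, upper-quartile and median-of-ratios scaling, which lost Pde12, and the count ranged from 1 to 2 when single libraries were left out (lost without NUR77 replicate 2 or GFP replicate 2). In interferon signalling 1 gene fell, not 2, with no filter, which lost Irf3, and the count ranged from 1 to 2 when single libraries were left out (2 only without NUR77 replicate 2). With the filter at a mean of 50, 6 effectors rose, not 10, since fewer were tested. TMM scaling moved the median of all genes by -0.064. Over all tested genes, 3682 were called higher and 3717 lower with TMM, 3720 and 3710 with upper-quartile, and 3771 and 3656 with median-of-ratios scaling, against 4305 and 3170 as reported. Same-numbered replicates deviated with correlations of 0.00159, 0.114 and 0.0447, so the numbers were not taken to pair the samples; with the replicate block 7585 genes were called, against 7475 without it, and the same 8 OAS genes rose. Depth limits Oasl2, Oas1d, Ifnb1, Zbp1 and Mx2.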
